A study of Saccharomyces cerevisiae with 4 samples.

Results

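Glutathione, a tripeptide of glutamate, cysteine and glycine, is the main small thiol of budding yeast, Saccharomyces cerevisiae. It is made in successive steps by the enzymes that GSH1 and GSH2 encode, is spent by transferases, peroxidases and glutaredoxins, and is returned from its oxidised form by glutathione reductase. Many of these genes are known in yeast as targets of the oxidative stress regulators Yap1 and Skn7 or of the general stress regulators Msn2 and Msn4. The genes described here are GSH1 and GSH2 for synthesis, GLR1 for reduction, GTT1 and GTT2 for transfer to other molecules, GPX1 and GPX2 for reduction of peroxides, and the glutaredoxin genes GRX1, GRX2 and GRX5.

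These 10 genes, of 5656 with a probe set that the platform annotation gives to no other gene, were chosen by their function, with the strain differences of the same 4 arrays already known. The fold changes and calls below therefore describe these arrays and are not independent evidence about the group. All 10 genes had such a probe set, 11 probe sets in all, and 10 of these, 1 for each gene, passed a filter that left out the dimmest 20% of probe sets by mean log2 signal over all arrays. The second probe set of GRX5 did not pass.

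Expression was measured on one-colour Affymetrix arrays in a double mutant named hst3hst4 (strain YCB600) and in wild type (strain YCB617), both of the FY background and both grown in the rich medium YPD, with no treatment named. HST3 and HST4 each encode a sirtuin, a deacetylase of histone H3 that consumes NAD. Each group had 2 arrays, each from a culture of its own, so the p-values cover the spread between cultures of 1 strain. The design sets every culture of the double mutant beside every wild-type one, to ask how transcript levels differ.

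Of the targeted genes, HST3 had signals of 0.4 and 0.5 on the hst3hst4-labelled arrays against 13.7 and 25.3 on the WT-labelled arrays, below the filter. HST4 went against the labels, with 38.0 and 39.3 on the hst3hst4-labelled arrays against 3.6 and 0.9. Where its probes lie relative to the deleted part is not given in the sources used here, so the arrays are called by their labels, and higher or lower means on hst3hst4-labelled relative to WT-labelled arrays. Signals had been scaled to a common trimmed mean on every array, and all changes are relative to it. The 9 hybridisation control probe sets were lower on the hst3hst4-labelled arrays by a mean log2 difference of -0.36, all 9 in that direction. When the arrays were scaled on them, the median log2 fold change over the 7420 tested probe sets went from -0.017 to 0.32, and the split of calls from 156 higher and 40 lower to 1132 higher and 29 lower.

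Among the 10 genes, GTT1 and GRX1 rose on the hst3hst4-labelled arrays and none fell. GTT1 rose 2.41-fold and GRX1 2.12-fold, on the scale of log2(signal + 3.3) used for every fold change here. GTT2 had a similar fold of 1.95 and stood just outside the threshold. The 2 calls of 10 stand beside 2.1% of 7420 probe sets called higher and 0.539% called lower by limma at a Benjamini-Hochberg adjusted p of 0.05. As the group was put together with these results known, nothing is read from that contrast. The other 8 genes did not pass, with log2 fold changes from -0.32 to 0.96. In RNA of whole cultures, a change in the share of cells that express a gene and a change in its RNA per cell cannot be told apart.

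**Figure D1:**
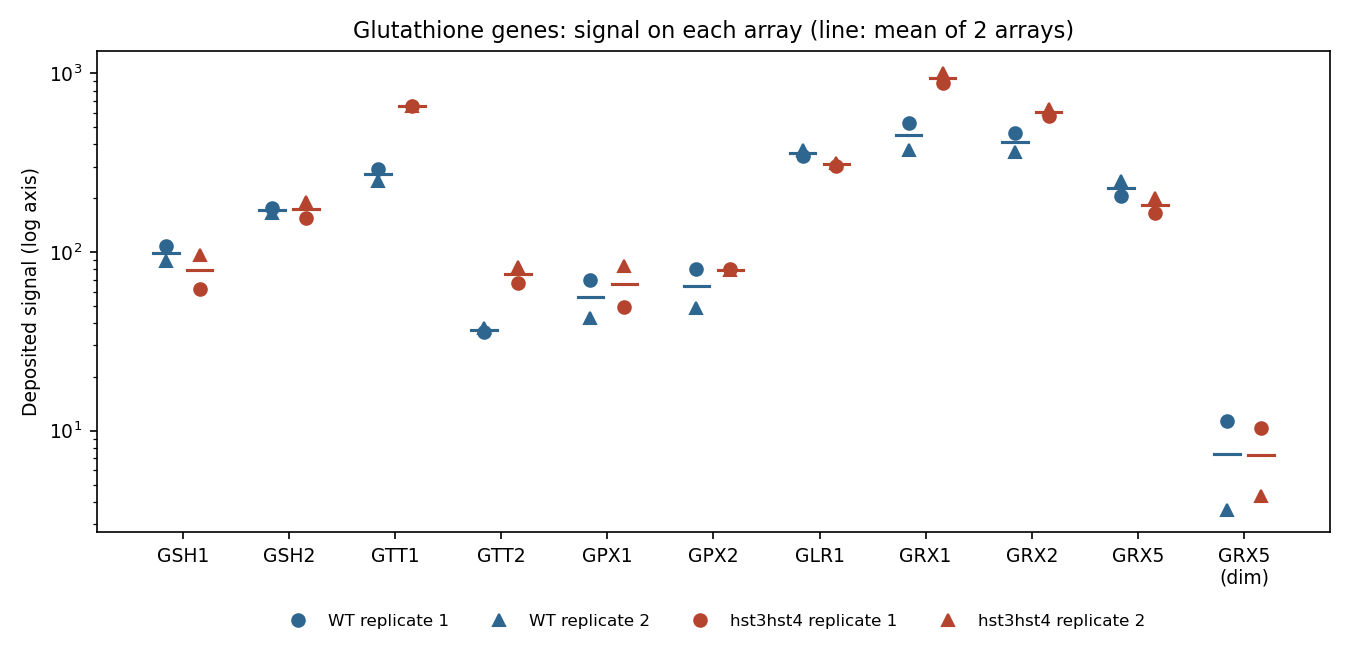
Deposited signal (log axis) of the 11 probe sets of the 10 glutathione genes on each array, with circles for replicate 1, triangles for replicate 2 and a line at the mean of each strain's 2 arrays. For GTT1, GTT2, GRX1 and GRX2 both hst3hst4-labelled arrays lie above both WT-labelled arrays; levels of different probe sets are not comparable.

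Of the transferase genes, GTT1 (YIR038C) encodes a glutathione S-transferase associated with the endoplasmic reticulum. Its signal was 655.7 and 658.4 on the hst3hst4-labelled arrays and 292.7 and 251.0 on the WT-labelled arrays. The mutant pair was nearly equal, and neither overlapped the wild-type pair. The means were 657 ± 1.91 and 272 ± 29.5 (SD, n = 2 each), a log2 fold change of 1.27 (SE 0.15, adjusted p = 0.00963 in limma). GTT1 was the only one of the 10 that was at least 2-fold higher in all 4 array pairs, with pair differences from 1.15 to 1.38 on the log2 scale. Over all tested probe sets 1.5% met that rule.

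GTT2 (YLL060C) encodes another glutathione S-transferase. Its signal was 67.4 and 82.5 on the hst3hst4-labelled arrays and 35.5 and 37.8 on the WT-labelled arrays. The groups did not overlap. The log2 fold change was 0.96 (SE 0.20), and its limma adjusted p of 0.053 missed the threshold, which GRX1 passed with 0.032. The pair differences ran from 0.78 to 1.14. GTT2 passed in 7 of 14 alternative settings, among them the fits without 1 or the other WT-labelled array. Those fits called more probe sets of any kind than the fit on all arrays.

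The glutaredoxins are small thiol oxidoreductases that take electrons from glutathione. GRX1 (YCL035C) and GRX2 (YDR513W) encode the enzymes with 2 active-site cysteines, and GRX5 (YPL059W) encodes a mitochondrial enzyme with 1 such cysteine that acts in iron-sulfur cluster assembly. GRX1 had signals of 882.1 and 1007.4 on the hst3hst4-labelled arrays and of 526.4 and 374.0 on the WT-labelled arrays. The groups did not overlap, although replicate 1 of wild type was 0.49 above replicate 2 on the log2 scale. The log2 fold change of GRX1 was 1.08 (SE 0.19, adjusted p = 0.032 in limma), and its pair differences ran from 0.74 to 1.42.

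GRX2 had signals of 577.9 and 633.3 on the hst3hst4-labelled arrays and of 464.2 and 360.6 on the WT-labelled arrays. These did not overlap either, by a smaller margin. Its log2 fold change was 0.56 (SE 0.17, adjusted p = 0.135 in limma). GRX1 and GRX2 are paralogs, and whether their probe sets share signal was not tested.

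GRX5 stood on the other side of zero. The brighter of its probe sets had 166.0 and 200.5 on the hst3hst4-labelled arrays and 206.9 and 249.0 on the WT-labelled arrays. The groups came close without overlapping. The log2 fold change was -0.31 (SE 0.18, adjusted p = 0.382 in limma), and 0.04 when the arrays were scaled on the hybridisation controls. With 1 array left out it ran from -0.18 to -0.44. Its dim probe set had 10.4 and 4.3 against 11.3 and 3.6, which overlap, and a log2 difference of 0.02.

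**Figure D2:**
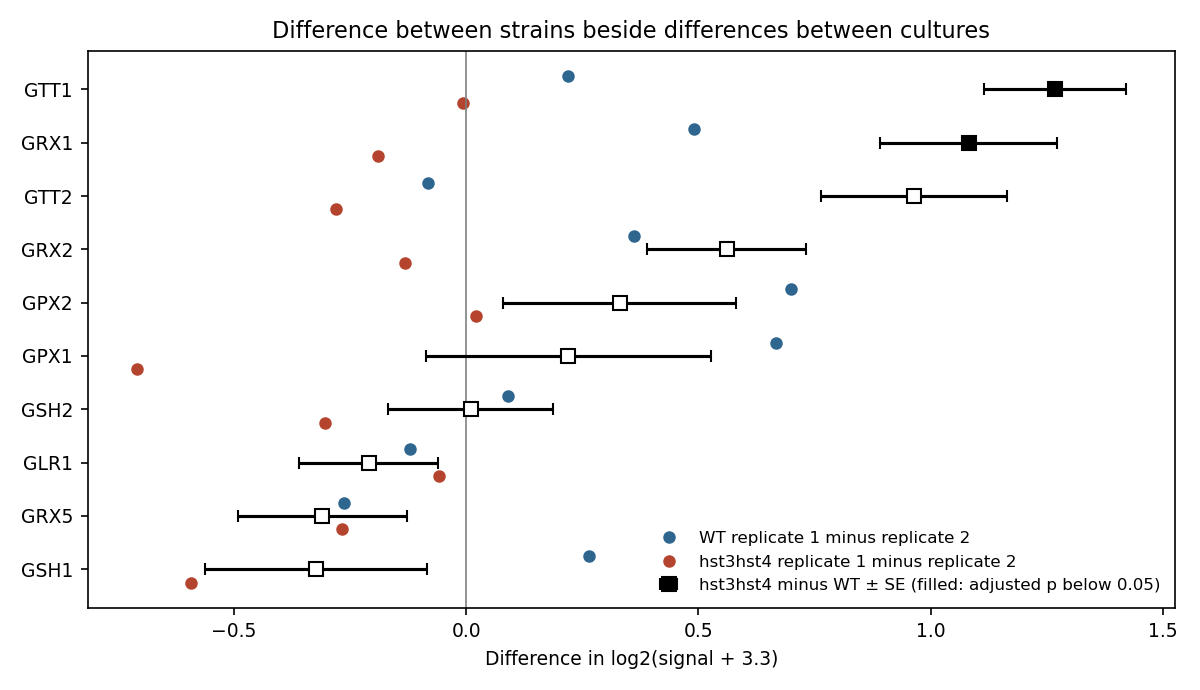
Difference in log2(signal + 3.3) for each glutathione gene between strains (squares with SE, filled where the limma adjusted p is below 0.05) and between the cultures of each strain (circles, replicate 1 minus replicate 2). GTT1, GRX1 and GTT2 have strain differences of 0.96 to 1.27, above either culture difference. The strain differences of GRX2 (0.56), GLR1 (-0.21) and GRX5 (-0.31) are also larger in size than their culture differences. For GPX1 and GPX2 the wild-type cultures differ by 0.67 and 0.70, more than the strains, and for GPX1 the hst3hst4 cultures differ by -0.71.

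For the peroxidase genes the wild-type cultures differed by more than the strains. For GPX1 the hst3hst4-labelled arrays did so too, with a difference of -0.71 (replicate 1 minus replicate 2). GPX1 (YKL026C) and GPX2 (YBR244W) encode peroxidases that reduce hydroperoxides. GPX1 had signals of 49.5 and 83.0 on the hst3hst4-labelled arrays and of 69.7 and 42.7 on the WT-labelled arrays. The values of the strains interleave. Its log2 fold change was 0.22 (SE 0.31, adjusted p = 0.732 in limma), and it was -0.13 without hst3hst4 replicate 2 and -0.11 without WT replicate 2.

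GPX2 had 80.0 and 78.8 on the hst3hst4-labelled arrays and 80.5 and 48.3 on the WT-labelled arrays. The mutant values matched the higher WT-labelled array, and the lower one stood apart. The log2 fold change was 0.33 (SE 0.25, adjusted p = 0.5 in limma). It was 0.68 without WT replicate 1 and -0.019 without WT replicate 2.

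Neither synthesis gene passed. GSH1 (YJL101C) encodes gamma-glutamylcysteine synthetase, which catalyses the first and rate-limiting step. Its signal was 62.4 and 95.8 on the hst3hst4-labelled arrays and 107.4 and 88.8 on the WT-labelled arrays, which overlap. The log2 fold change was -0.32 (SE 0.24, adjusted p = 0.486 in limma), and 0.02 when scaled on the hybridisation controls. It was -0.027 without hst3hst4 replicate 1 and -0.62 without hst3hst4 replicate 2.

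GSH2 (YOL049W) encodes glutathione synthetase, which adds glycine in the second step. Its signal was 154.3 and 191.4 on the hst3hst4-labelled arrays and 176.2 and 165.3 on the WT-labelled arrays. The wild-type values lie between those of the mutant, and the log2 fold change was 0.01 (SE 0.18, adjusted p = 0.982 in limma), from -0.14 to 0.16 with 1 array left out.

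GLR1 (YPL091W) encodes the NADPH-dependent reductase that regenerates glutathione. It had 302.9 and 315.8 on the hst3hst4-labelled arrays and 343.4 and 373.9 on the WT-labelled arrays. The groups did not overlap, but the distance was small. The log2 fold change was -0.21 (SE 0.15, adjusted p = 0.474 in limma), and 0.15 when scaled on the hybridisation controls.

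By the order of the single arrays, both hst3hst4-labelled arrays were above both WT-labelled arrays for GTT1, GTT2, GRX1 and GRX2 and below both for GLR1 and GRX5. The other 4 genes overlapped. Over all tested probe sets, 25.4% were above and 27.2% below in this way. With 2 arrays a group, a two-sided exact permutation test of 1 gene cannot give a p below 0.333.

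**Figure D3:**
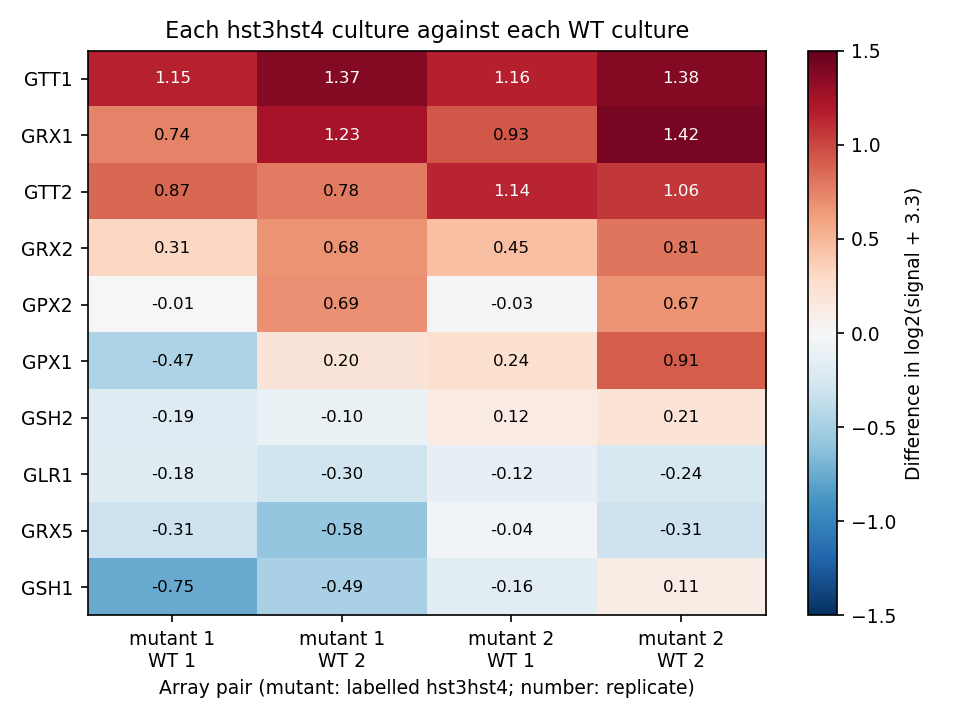
Difference in log2(signal + 3.3) of each glutathione gene for each hst3hst4-labelled array against each WT-labelled array (columns). GTT1, GRX1, GTT2 and GRX2 are above 0 in all 4 pairs, GLR1 and GRX5 below 0 in all 4, and GPX1 runs from -0.47 to 0.91.

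The median log2 fold change of the 10 genes was 0.28, beside -0.017 over all 7420 tested probe sets, and 7 of the 10 were above 0. The median depended on the array pair. It was -0.09 and 0.44 for hst3hst4 replicate 1 against WT replicates 1 and 2, and 0.18 and 0.74 for hst3hst4 replicate 2. Over all tested probe sets the pair medians ran from -0.07 to 0.03. Without WT replicate 2 the median of the 10 was -0.027, and without WT replicate 1 it was 0.62.

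The cultures of a strain also differed on these genes. Wild-type replicate 1 was above replicate 2 for 7 of the 10, with a median difference of 0.24, beside 3406 of all 7420 tested probe sets and a median of -0.033. Of the hst3hst4-labelled arrays, replicate 1 was above replicate 2 for 1 of the 10, with a median difference of -0.23, beside 2913 of 7420 and a median of -0.075. General stress genes moved in the same sense: all 11 on a list of them were higher on WT replicate 1 than on replicate 2, by a median of 0.81, and 0 of 11 were higher on hst3hst4 replicate 1 than on replicate 2. Their summed signal was 5016 and 2516 on the WT-labelled arrays and 9739 and 10927 on the hst3hst4-labelled arrays. On the latter arrays HSP12 (3959 and 4124) and DDR2 (2133 and 2479) contributed most. On the WT-labelled arrays HSP12 had 752.7 and 543.6, DDR2 644.7 and 267.5, and TPS2 728.3 and 142.2. The part of such a difference between cultures in the values of the glutathione genes was not tested.

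Of those 11 stress genes, 5 rose and 6 did not pass, beside the 2.1% of all tested probe sets called higher. Their median log2 fold change was 0.34, and by array pair it ran from -0.32 (hst3hst4 replicate 1 against WT replicate 1) to 1.39 (hst3hst4 replicate 2 against WT replicate 2). HSP26 and HSP12, small heat shock proteins, had log2 fold changes of 3.37 and 2.65 (limma adjusted p = 0.00146 and 0.000775). DDR2 (2.46), the carboxypeptidase inhibitor gene TFS1 (1.75) and the trehalase gene NTH1 (1.12) also rose. HSP104, a disaggregase gene, and HSP78, its mitochondrial relative, had -0.14 and -0.11 on the deposited scaling. Both were lower on the hst3hst4-labelled arrays than on WT replicate 1 and, for hst3hst4 replicate 2, higher than on WT replicate 2, by 0.45 and 0.31.

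Leaving out 1 array leaves 1 array in a group, and the measured spread of a gene then comes from the other group alone. Without hst3hst4 replicate 1 or 2, 9 and 4 of 7420 probe sets were called in all, against 196 with all arrays. Without hst3hst4 replicate 1 the limma adjusted p was 0.176 for GTT1 and 0.257 for GRX1, and without hst3hst4 replicate 2 it was 0.212 and 0.289. Their log2 fold changes were 1.27 and 1.18 without the former and 1.26 and 0.99 without the latter. Without WT replicate 1, GTT2 and GRX2 also passed, in a fit that called more probe sets of any kind than the fit on all arrays. The pair differences of GRX2 were 0.68 and 0.81 against WT replicate 2, and 0.31 and 0.45 against WT replicate 1. GRX1 also lost its call with no filter on dim probe sets (adjusted p = 0.0951), and both lost it without the mean-variance trend (0.0731 for GTT1 and 0.129 for GRX1).

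**Figure D4:**
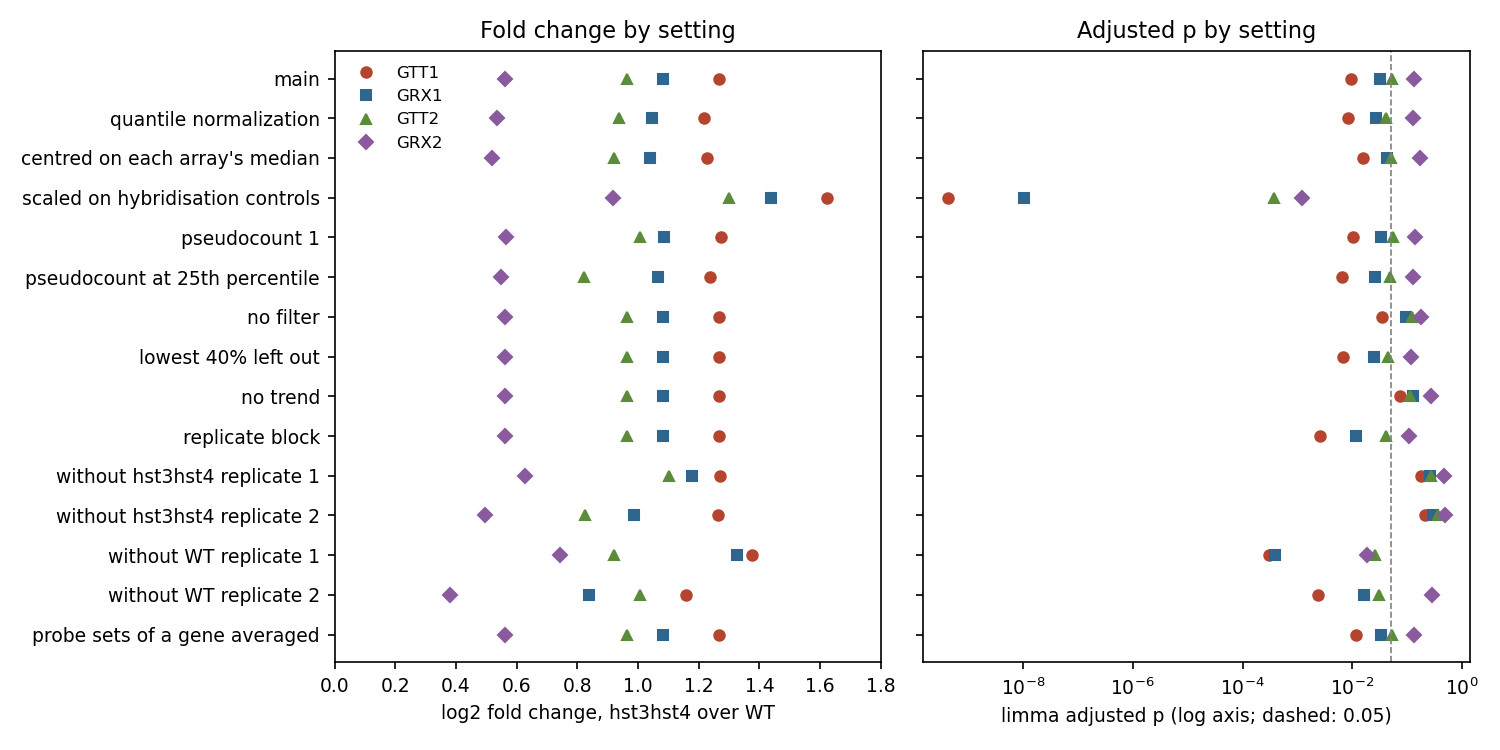
Log2 fold change (left) and limma adjusted p (right, log axis, dashed line at 0.05) of GTT1, GRX1, GTT2 and GRX2 under the main setting and 14 alternatives. The fold changes of GTT1 stay between 1.16 and 1.62 and those of GRX1 between 0.84 and 1.44, while their adjusted p-values pass 0.05 in both directions, up to 0.212 and 0.289 without hst3hst4 replicate 2.

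Other genes that handle glutathione were taken from a list of 23, all tested. Of these 2 rose, 1 fell and 20 did not pass, with a median of 0.34 and 20 log2 fold changes above 0. Over all 7420 tested probe sets 2.1% were called higher, 0.539% were called lower and 3570 had a log2 fold change above 0. ECM4, an omega-class glutathione transferase, had signals of 93.5 and 130.5 on the hst3hst4-labelled arrays and of 43.3 and 40.1 on the WT-labelled arrays. Its log2 fold change of 1.34 (SE 0.22, adjusted p = 0.0232 in limma) was close to that of GTT1.

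GCG1, which encodes an enzyme that breaks glutathione down, had 165.4 and 186.3 on the hst3hst4-labelled arrays and 64.4 and 74.8 on the WT-labelled arrays, a log2 fold change of 1.30 (SE 0.18, adjusted p = 0.0158 in limma). The gene that fell was OPT1, which encodes the high-affinity glutathione importer of the plasma membrane. Its signal was 192.2 and 209.3 against 354.6 and 365.0 on the WT-labelled arrays, and it fell by 0.83 on the log2 scale (SE 0.15, adjusted p = 0.0366 in limma). URE2, a nitrogen regulator with a transferase fold, was the next lowest at -0.30 (adjusted p = 0.426).

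For ECM4, GCG1 and OPT1 the arrays of the strains did not overlap. These genes were named because they passed on the same arrays, so this is not separate support. Of the 23 genes on the list, 14 were above and 2 below without overlap. Over all tested probe sets 25.4% were above and 27.2% below in this way. In the fits without 1 hst3hst4-labelled array, which called few probe sets of any kind, none of the 3 passed (adjusted p from 0.171 to 0.324). The log2 fold changes there were 1.57 and 1.11 for ECM4, 1.38 and 1.21 for GCG1 and -0.77 and -0.89 for OPT1, without replicate 1 and replicate 2. None passed with no filter or without the trend either. Scaled on the hybridisation controls, OPT1 did not pass (-0.48, adjusted p = 0.188).

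None of the 10 tested genes on a list of 11 regulators passed in limma. Over all 7420 tested probe sets 2.1% were called higher and 0.539% lower, so 0 calls among 10 genes lies near these shares. An unadjusted p under 0.05 was found for 2 of them, beside 1498 of all 7420 tested probe sets. YAP1, the main oxidative stress activator, had signals of 31.0 and 56.4 on the hst3hst4-labelled arrays and of 26.7 and 33.2 on the WT-labelled arrays, which overlap (log2 fold change 0.45, adjusted p = 0.441). Its value was 0.85 without hst3hst4 replicate 1 and 0.052 without hst3hst4 replicate 2. SKN7, which acts beside it, had -0.12 (adjusted p = 0.735), and the general stress activators MSN2 and MSN4 had -0.56 (0.217) and -0.15 (0.707). MET28, of the sulfur amino acid activator complex, was highest at 0.98 (0.179), and MET31, of the same regulon, had -0.52 (0.372). Without WT replicate 1 MSN2, MET28 and MET31 had log2 fold changes of -0.82, 1.26 and -0.91. Without WT replicate 2 they had -0.31, 0.70 and -0.14. YBP1, which helps to activate Yap1, was too dim to test. These are transcript levels of the regulators; the activity of the proteins was not measured.

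**Figure D5:**
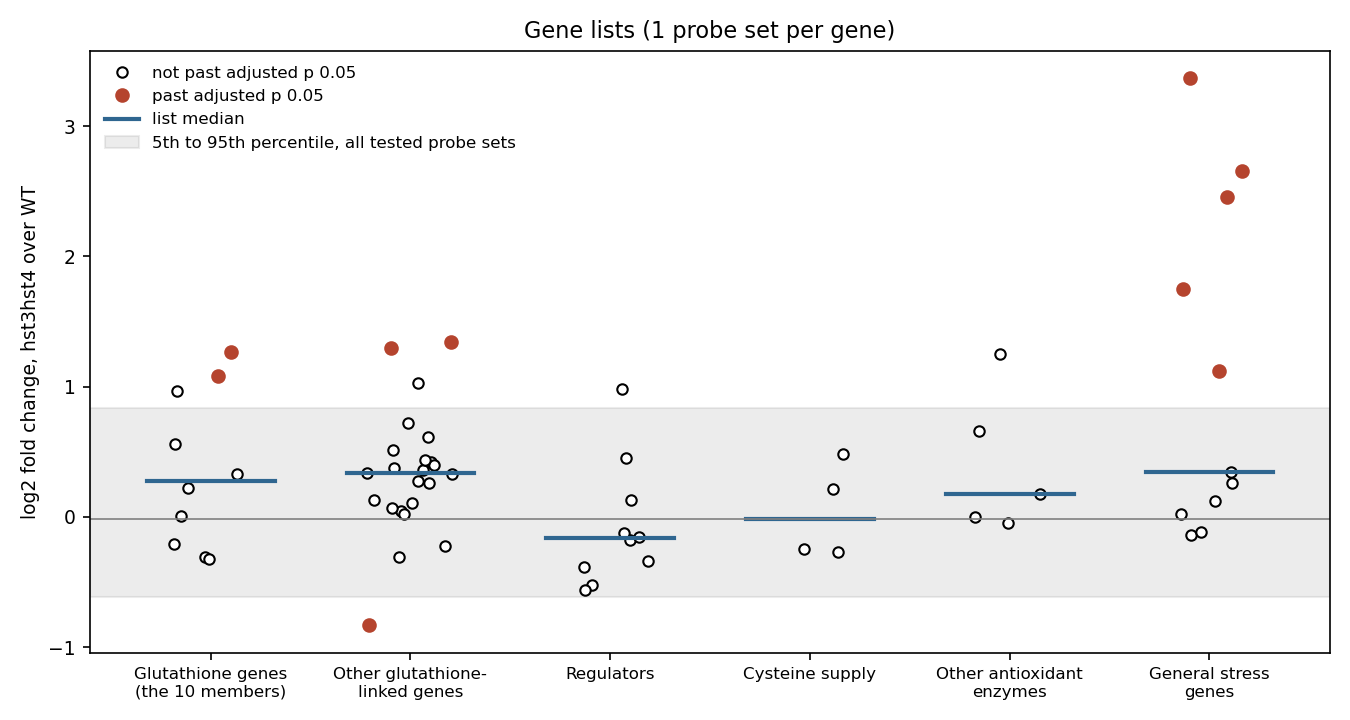
Log2 fold change of hst3hst4-labelled over WT-labelled arrays for each tested gene of 6 lists (filled: limma adjusted p below 0.05; blue line: list median; grey band: 5th to 95th percentile of all tested probe sets, -0.62 to 0.84). The called glutathione genes, between 1.08 and 1.34, lie above the band and OPT1 below it. No regulator is called, beside 2.1% of all tested probe sets called higher and 0.539% called lower.

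The 4 genes for cysteine supply and the 5 antioxidant enzymes outside the glutathione system held 0 calls in limma. Over all 7420 tested probe sets 2.1% were called higher and 0.539% lower, so 0 calls in lists this short lies near these shares. The lists held 0 and 2 genes at an unadjusted limma p under 0.05, beside 1498 of all 7420 tested probe sets. CYS3 and CYS4, which carry sulfur from homocysteine to cysteine, had log2 fold changes of -0.27 and -0.24 (adjusted p = 0.436 and 0.483). STR2 and STR3, of the reverse route, had 0.21 and 0.48. SOD2, the mitochondrial superoxide dismutase, had 0.66 (adjusted p = 0.0737), and SOD1, the cytosolic one, -0.05 (0.858). CCP1, mitochondrial cytochrome c peroxidase, had 0.00 and CTA1, the peroxisomal catalase, 0.17.

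CTT1, the cytosolic catalase, had signals of 53.4 and 55.8 on the hst3hst4-labelled arrays and of 41.9 and 9.8 on the WT-labelled arrays. The wild-type cultures differed by 1.79 on the log2 scale, more than the strain difference of 1.25 (SE 0.50, adjusted p = 0.222). CTT1 had a log2 fold change of 2.14 without WT replicate 1, a fit in which the mutant pair alone gives the spread of the gene (adjusted p = 0.000257), and 0.36 without WT replicate 2 (adjusted p = 0.458).

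The genes whose profile over the 4 arrays was most like that of GTT1 were the amino acid permease gene GAP1 and the open reading frames YEL073C and YGR201C. Likeness is the Euclidean distance between log2 profiles, each centred on its own mean, and these distances were 0.07, 0.08 and 0.09. For GRX1 the nearest were SKM1, a protein kinase gene (0.08), NTH1 (0.09) and GTO1, a peroxisomal omega-class glutathione transferase gene (0.09). GTO1 itself was dim, with 18.1 and 20.2 on the hst3hst4-labelled arrays and 10.1 and 5.7 on the WT-labelled arrays, and did not pass (log2 fold change 1.03, adjusted p = 0.168). Among the other 5270 genes, GRX1 was the 29th nearest to GTT1, GTT2 the 71st and GRX2 the 302nd, and the remaining members lay from the 901st on. The distance is taken over the same 4 arrays as the fold changes and depends on them. The ranks are therefore not separate evidence that these genes go together.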

How the data were processed

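Per the labels' protocols, 1 round of oligo-dT primed amplification preceded biotin labelling, and each of 4 one-colour Affymetrix arrays received RNA of 1 culture. The table deposited by the authors holds a linear signal intensity for every probe set. The submitters' processing notes name GCOS 1.4 and MAS5, without a scale target. The trimmed mean (2% at each end) was 150.2 on each array, so the authors' scaling had set a common mean. No detection calls were used here. Oligo-dT priming and mismatch subtraction make long or dim transcripts less certain.

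Of 9335 probe sets, 60 controls were left out. Of the other 9275, 6504 had 1 gene by the platform annotation (all matched by gene identifier to the RefSeq R64 table), 328 several and 2443 none. The probe set with the highest mean log2 signal stood for a gene. Signals entered as log2(signal + 3.3), where 3.3 is their 10th percentile. The dimmest 20% (1855, under a signal of about 8.97) were left out and 7420 tested in limma 3.58.1 (lmFit, then eBayes with a trend of variance on mean; R 4.3.3), two-sided, Benjamini-Hochberg adjusted over all of them, threshold 0.05. Residual degrees of freedom were 2 and prior ones 5.75, with a median SE of 0.219 (log2). The number of arrays limits the precision.

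The members, lists and alternatives were chosen with earlier results of these data known. Named genes are all members, HST3 and HST4, and called members of the other lists with their highest and lowest 2. YAP1, SKN7, MSN2 and MSN4, and the 3 profiles nearest to each called member, are also named. YBP1, TPS2, STR2, STR3, CTA1, and the chromosome neighbours were named after their values were seen. Sequences and coordinates are not used here. The alternatives were quantile normalization, median centring, scaling on hybridisation controls, other pseudocounts and filters, no trend, averaged probe sets, a replicate block and each array left out. Figures were drawn with matplotlib 3.10.9.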

Additional observations from a re-analysis of the deposited data

How the results depend on the processing

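Of 10 glutathione genes 2 were called in the fit described above. The count was 4 with scaling on the hybridisation controls, 1 with no filter, 0 with no trend (4 at an unadjusted p under 0.05 in limma) and 0 to 4 with 1 array left out, and 2 or 3 under the others. For the 42 tested genes of the other glutathione, regulator, cysteine and antioxidant lists the count of 3 became 13, 0 and 0 under these first alternatives (10 and 8 of them at an unadjusted p under 0.05 with no filter and no trend) and 0 to 10 with 1 array left out. Of all probe sets 196 were called, against 1161, 36 and 38, and 4 to 865 with 1 array left out; fewer arrays leave 1 residual degree of freedom. In the fit described above 1498 of all 7420 tested probe sets had an unadjusted p under 0.05 in limma. The counts over all probe sets at that level under the alternatives are not given here. The median log2 fold change of the glutathione genes was 0.28, against 0.62 with scaling on the hybridisation controls, and it ran from -0.027 (without WT replicate 2) to 0.62 with 1 array left out. GTT1 and GRX1 were above 0 in all 14 alternatives and called in 11 and 10. Both missed the threshold with no trend and without either hst3hst4 replicate, and GRX1 also with no filter. Their lowest limma adjusted p-values, 4.4e-10 and 1.0e-08, came from scaling on the hybridisation controls. The SEs there were 0.23 and 0.22, larger than the 0.15 and 0.19 of the fit described above. These p-values therefore do not come from a smaller spread of the 2 genes. GTT2 was called in 7 and GRX2 in 2 (scaling on the hybridisation controls and without WT replicate 1). Where not stated, the cause of such changes was not tested.

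The replicate numbers are not stated to mark a shared day or batch, and same-numbered arrays did not deviate together (r = -0.04 over probe sets). With the replicate block, 343 probe sets and 3 glutathione genes were called, the added one being GTT2 (adjusted p = 0.0406).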

Other observations

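The genes next to the glutathione genes on their chromosomes, in the order of the RefSeq R64 table, were looked up after the values were seen. Of 20 such neighbours 18 had a tested probe set of their own, and 1 rose and 1 fell. Over all 7420 tested probe sets 2.1% were called higher and 0.539% lower. Whether neighbours change together was not tested. GTT1 lies between HYR1, which encodes a peroxidase that also senses peroxide for Yap1, and YPS6, a gene of the yapsin protease family. YPS6 rose with a log2 fold change of 1.31 (SE 0.26, adjusted p = 0.0439 in limma), and HYR1 had 0.40 (SE 0.15, adjusted p = 0.195 in limma), with signals of 560.0 and 567.4 on the hst3hst4-labelled arrays and of 455.7 and 400.2 on the WT-labelled arrays. GTT2 lies beside MMP1, an S-methylmethionine permease gene, which fell by 1.18 on the log2 scale (SE 0.21, adjusted p = 0.0354 in limma), opposite in sign to the GTT2 value of 0.96. YDR514C, beside GRX2, had 1.25 (SE 0.31, adjusted p = 0.0895 in limma). PAN3, beside GPX1, went the other way with -0.90 (SE 0.23, adjusted p = 0.0927 in limma).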
